A study of Mus musculus with 16 samples.

Results

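The subject is a set of 8 genes that podocytes use to build and hold the kidney's filtration barrier, Nphs1, Magi2, Cd2ap, Synpo, Podxl, Ptpro, Plce1 and Wt1, read in whole-kidney RNA from 16 mice. A gene was taken where its symbol in the gene count table was one of these names. Each of the 8 symbols occurred once among the 57186 genes of the table, and each had at least 100 counts over all libraries. The 16 libraries fall by their labels into 4 groups of 4 male mice. All mice were Elmo1H/H on the C57BL/6J background, that is, they carried 2 copies of an allele that raises expression of the Elmo1 gene, so the controls shared that allele too. Non-diabetic mice were Ins2+/+ and diabetic mice Ins2Akita/+ (written A/+ in the labels), a dominant insulin gene variant that causes diabetes from early life. The groups were non-diabetic untreated (ND_C), non-diabetic given vitamin B12 (ND_B12), diabetic untreated (D_C) and diabetic given B12 (D_B12). Treated mice drank B12 at 10 mg/kg per day from 8 weeks of age, a course that the methods give as 8 weeks and the labels as 16 weeks. By the methods, kidneys were taken at 16 weeks of age after a short daytime fast. The questions were whether diabetes changes these genes and whether B12 changes them in diabetic or in non-diabetic kidneys.

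Podocytes are the epithelial cells that wrap the glomerular capillaries with interlocking foot processes. Neighbouring foot processes are joined by the slit diaphragm, in which nephrin (Nphs1) spans the gap and scaffold and adaptor proteins such as MAGI2 and CD2AP tie it to actin. Synaptopodin (Synpo) organises that actin, podocalyxin (Podxl) coats the cell surface with negative charge, PTPRO is a tyrosine phosphatase of the podocyte surface, PLCE1 is a phospholipase that signals below receptors, and WT1 is the transcription factor that keeps podocytes differentiated. Podocytes do not readily divide, and their injury and loss are a known feature of diabetic kidney disease. In RNA from a whole kidney, fewer podocytes and less RNA per podocyte cannot be told apart. Of the 8 genes, Cd2ap is also expressed widely outside podocytes, and expression of the others outside podocytes was not examined here.

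Library totals ran from 65271308 to 91771136 estimated counts, and the least abundant reading of any of the 8 genes was 512 counts. Groups and directions throughout are those of the labels. Sets of 4 libraries were also matched to the group means in the study's supplement over 181 genes, and 11 of the 16 libraries fell into a set other than that of their label. For 2 of them, ND_B12 replicate 4 and D_C replicate 1, the diabetic status differed as well, and results are therefore given with and without these 2 libraries. Within the diabetic arm, D_C replicates 2, 3 and 4 fell into the set that fits the D_B12 means, and all 4 D_B12 libraries into the set that fits the D_C means. Under that grouping the sides of the B12 comparison in diabetic kidneys would be largely exchanged, and its direction and that of the interaction with it. The diabetic side of the diabetes comparison called untreated would be largely treated mice. That of the diabetes comparison under B12 would be untreated mice. Leaving out the 2 libraries addresses none of this. The library names carry dates over 111 days whose meaning the labels do not give. The ND_C dates fall on days 0 to 14, the ND_B12 dates on days 14 to 21, the D_C dates on days 21 to 58 and the D_B12 dates on days 63 to 111. No date holds libraries of both ND_C and D_C, of both D_C and D_B12 or of both ND_B12 and D_B12, and date and group cannot be told apart in these comparisons.

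**Figure D1:**
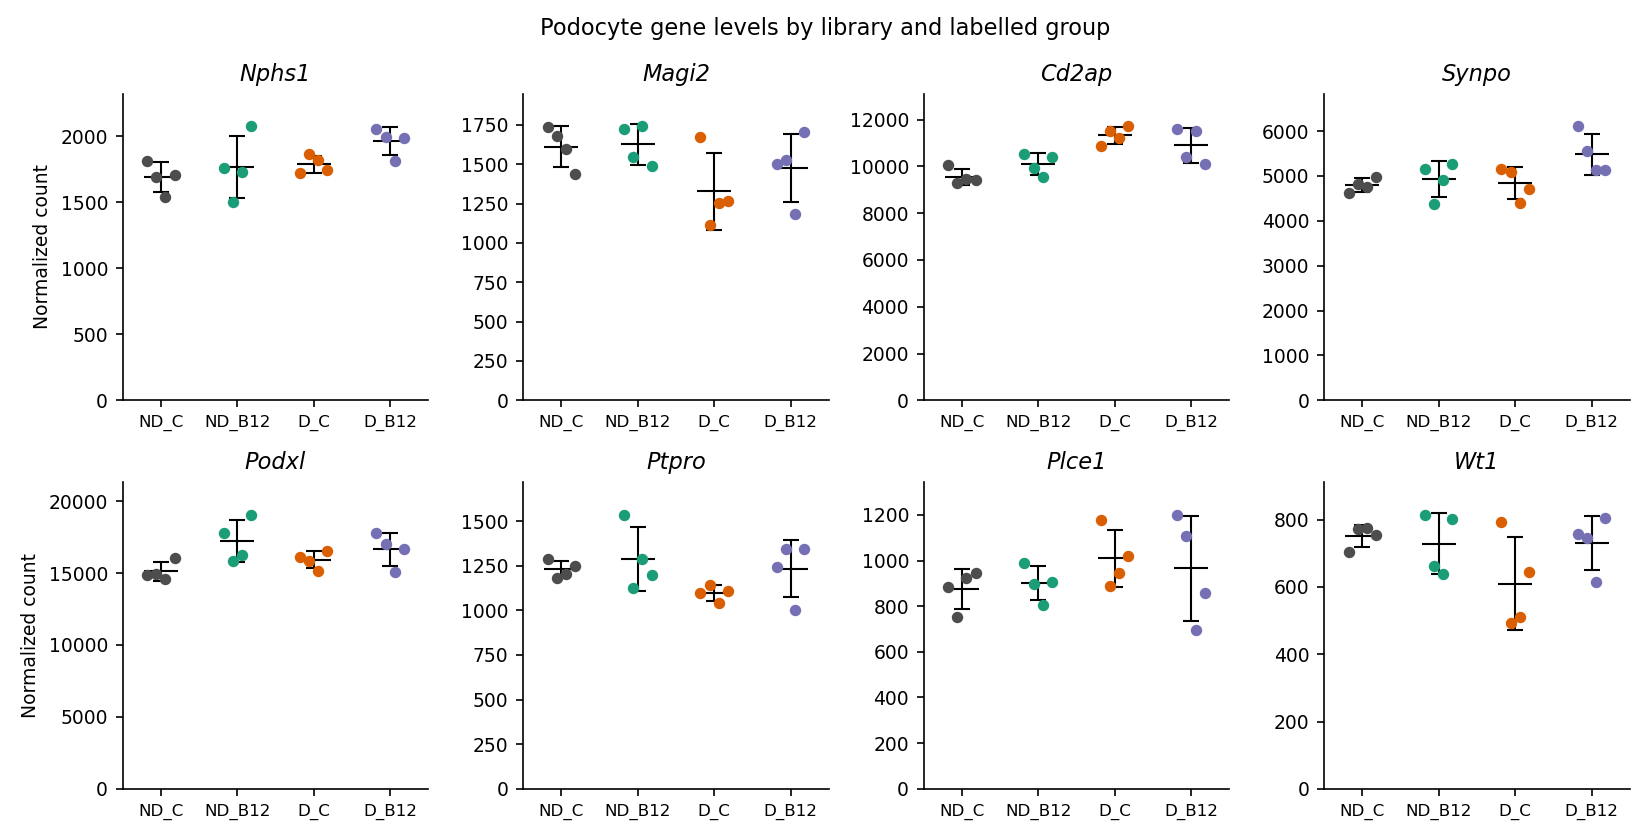
Normalized count (vertical axis, from 0) of each of the 8 podocyte genes in every library, by labelled group (horizontal axis, 4 libraries each). Points are libraries in the order of their replicate number, bars are mean ± SD. In Cd2ap the 4 D_C points (10876 to 11707) lie above all ND_C points (9272 to 10040), and in Wt1 and Magi2 the first D_C point lies apart from the other 3.

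Normalized counts, the deposited counts divided by a size factor for each library, ranked the genes from Podxl to Wt1. Per kilobase of each gene's most abundant transcript, the level over the 16 libraries was 3009 ± 229 for Podxl and 1845 ± 150 for Cd2ap, followed by 833 ± 71.8 for Synpo and 389 ± 35.8 for Nphs1 (SD, n = 16). Ptpro at 233 ± 25.5, Magi2 at 219 ± 30.0 and Wt1 at 211 ± 30.5 lay within 1 SD of each other, and Plce1 was lowest at 92.7 ± 13.7. Over the 16 libraries the median coefficient of variation of the 8 genes was 10.1%, beside 9% over the 10850 genes with a mean of at least 500 normalized counts. The highest library exceeded the lowest by 1.26-fold in Cd2ap, the narrowest range, and by 1.72-fold in Plce1, the widest. Summed over the 8 genes, untreated kidneys had 34817 to 36521 normalized counts without diabetes and 36301 to 38746 with it, and treated kidneys 35854 to 41194 and 37023 to 42222. Each of these ranges overlapped the next, but that of ND_C lay wholly below that of D_B12, groups that differ in both diabetes and B12. Podxl and Cd2ap, with means of 16225 and 10467, weighed most in these sums, whose mean was 37870. Together the 8 genes stood at 422 to 545 CPM, counts scaled to library totals of 1000000.

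The genes lie on 7 chromosomes of GRCm39, Nphs1 at chr7:30157740-30186675, Magi2 at chr5:19431741-20909790, Cd2ap at chr17:43103839-43187613, Synpo at chr18:60726087-60793214, Podxl at chr6:31496418-31540924, Ptpro at chr6:137229276-137440263, Plce1 at chr19:38469411-38773474 and Wt1 at chr2:104956625-105003961. Exons of Nphs1, Wt1, Cd2ap and Magi2 overlap exons of genes annotated on the opposite strand. The methods say that strand was assigned to alignments from intron motifs, but whether the deposited counting used the strand of the library is not given in the sources used here, and RNA of these partners cannot be told apart from that of the 4 genes. Over all libraries the largest counts of such partners were 8605 for Rps12-ps4 over Nphs1, 1978 for 4921504A21Rik over Magi2 and 1324 for Wt1os over Wt1.

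Untreated diabetic kidneys were compared with untreated non-diabetic kidneys to ask what diabetes does to the podocyte genes. Cd2ap rose by 1.19-fold and was the only one of the 8 to pass an adjusted p-value of 0.05, in a comparison in which 1.66% of all 25408 genes tested passed. The level of the scaffold gene Magi2 was 0.82-fold and that of Wt1 0.81-fold, and neither passed. The slit diaphragm gene Nphs1, Synpo and Podxl were at 1.06-fold, 1.01-fold and 1.05-fold. At an unadjusted p below 0.05 there were 3 of the 8 genes, against 18.6% of all genes, and in 2 of 8 the groups did not overlap, against 9.44% of all genes. The median log2 fold change of the 8 was 0.04 and that of all genes tested -0.0034.

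Cd2ap, the adaptor that links nephrin to actin and to endocytosis, had normalized counts of 10040, 9272, 9445 and 9394 in ND_C. In D_C it had 10876, 11529, 11204 and 11707. Each D_C library was above each ND_C library, with means of 9538 ± 342 and 11329 ± 367 (SD, n = 4 per group). On the log2 scale the difference was 0.25 (SE 0.056, 95% interval 0.13 to 0.37, edgeR adjusted p = 0.0429). The size held at 0.23 to 0.28 in all 23 alternatives without the replicate block, but the adjusted p ran from 0.00145 with DESeq2 to 0.183 with the date as a covariate and was below 0.05 in 11 of them. With the replicate number as a block the edgeR adjusted p was 0.0581. Without ND_B12 replicate 4 and D_C replicate 1 it was 0.0149. The call was lost without any 1 of the 4 ND_C libraries, of D_C replicates 2, 3 and 4, of ND_B12 replicate 2 or of D_B12 replicate 2. Without ND_C replicate 2 or D_C replicate 4, 0 of all genes tested were called.

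Wt1 and Magi2 were split within the untreated diabetic group. Wt1 had 704, 773, 775 and 754 normalized counts in ND_C. In D_C it had 793, 493, 510 and 644, so that replicate 1 was above and the other 3 below every ND_C library. The log2 fold change was -0.30 (SE 0.14, 95% interval -0.59 to -0.011, edgeR adjusted p = 0.249). Magi2, whose protein is a membrane scaffold at the slit diaphragm, had 1734, 1678, 1594 and 1439 in ND_C. Its D_C values were 1675, 1113, 1255 and 1265, of which only replicate 1 lay within the ND_C range and the other 3 lay below it. The log2 fold change was -0.28 (SE 0.12, 95% interval -0.53 to -0.025, edgeR adjusted p = 0.223).

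Without D_C replicate 1, Wt1 fell by 0.46 on the log2 scale (edgeR adjusted p = 0.0377) and Magi2 fell by 0.42 (edgeR adjusted p = 0.0362), so that with Cd2ap 3 of the 8 genes were called, against 6.20% of all genes in that fit. Leaving out both libraries whose diabetic status is in doubt gave -0.45 for Wt1 (edgeR adjusted p = 0.0325) and -0.41 for Magi2 (edgeR adjusted p = 0.0292), again with 3 of the 8 called, against 8.57% of all genes. Over the alternatives without the block, the adjusted p for Wt1 ran up to 0.826 and that for Magi2 up to 0.819, both with the date as a covariate. Among the 16 fits that each left out 1 library, leaving out D_C replicate 1 was the only one to bring either gene past the threshold. Groups were unequal in other cell markers as well. The summed level of 7 collecting duct and inner medulla markers was 32353 in D_C replicate 1, from 42822 to 59239 in the other D_C libraries and from 22231 to 28314 in ND_C, and the part of tissue make-up in the Wt1 and Magi2 values was not tested.

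Among the surface proteins, Ptpro had 1285, 1180, 1203 and 1251 normalized counts in ND_C. In D_C it had 1099, 1144, 1039 and 1108, each below every ND_C library. The log2 fold change of -0.16 nevertheless had a 95% interval of -0.37 to 0.042 (adjusted p = 0.39 by edgeR, SE 0.097). The spread in this fit was shared with the 2 treated groups, and with only ND_C and D_C in the fit the adjusted p was 0.244, the lowest over the alternatives, whose highest was 0.906. Podxl ran from 14581 to 16049 in ND_C and from 15137 to 16549 in D_C, with a 95% interval of the log2 difference of -0.066 to 0.22. Nphs1 ran from 1537 to 1812 and from 1724 to 1865, with an interval of -0.092 to 0.26. For Synpo the interval was -0.14 to 0.16, and for Plce1, the phospholipase, -0.10 to 0.51. The intervals of Nphs1 and Plce1 reach the size of the Cd2ap difference and those of Synpo and Podxl do not, and none of them shows that a gene was unchanged.

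**Figure D2:**
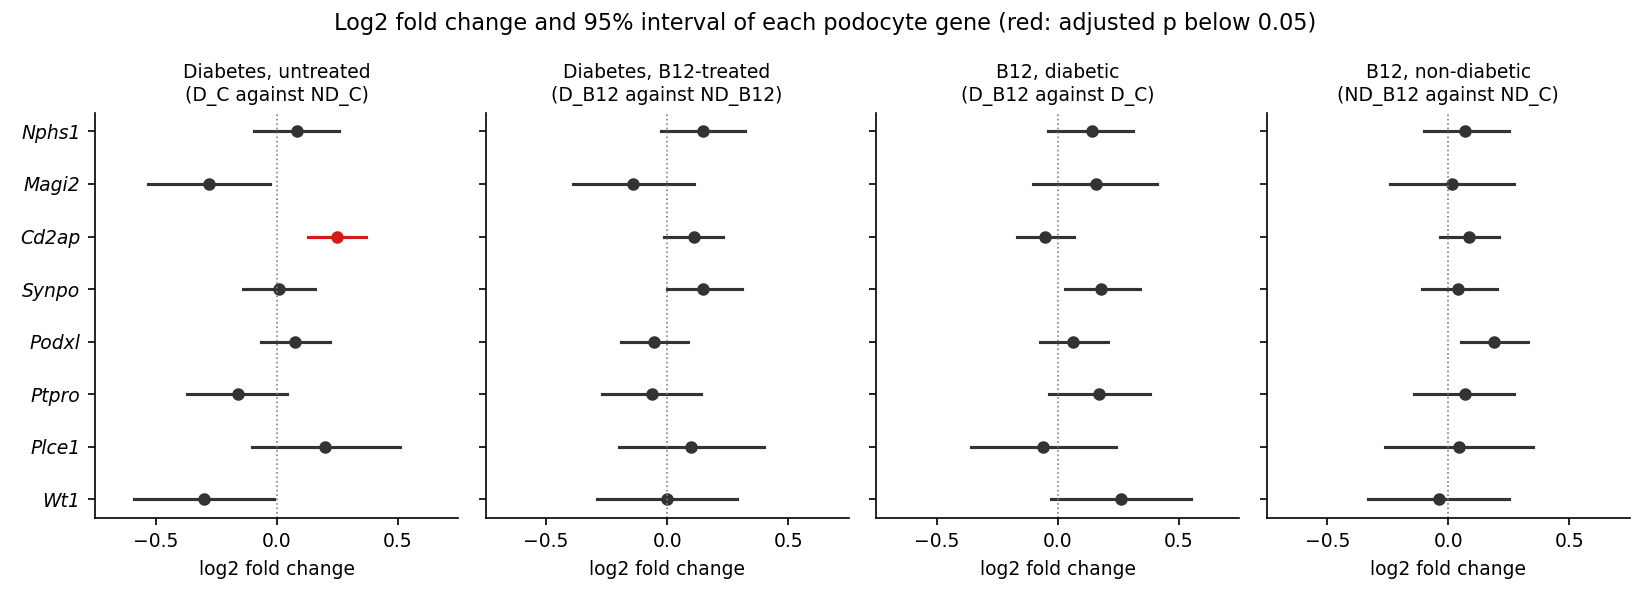
Log2 fold change (horizontal axis) of each podocyte gene (vertical axis) with its 95% interval in 4 comparisons between labelled groups of 4 libraries. Red marks an adjusted p-value below 0.05, which was reached by Cd2ap in untreated kidneys, at 0.25 with an interval of 0.13 to 0.37.

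The same contrast in B12-treated kidneys, D_B12 against ND_B12, gave no call among the 8 genes, in a comparison in which 0.823% of all genes passed. DESeq2 called 1146 of all genes and again none of the 8. None of the 8 was below an unadjusted p of 0.05, against 17.0% of all genes, and no gene's groups were apart, against 11.7% of all genes. Cd2ap had 10507, 9942, 9533 and 10411 in ND_B12. In D_B12 it had 11599, 10402, 11495 and 10118, which overlaps, and the log2 fold change was 0.11 (SE 0.056, 95% interval -0.011 to 0.23, edgeR adjusted p = 0.346). Synpo was at 0.15 (95% interval -0.0018 to 0.31) and Nphs1 at 0.15 (-0.026 to 0.32). Wt1 stood at 1.00-fold, with an interval of -0.29 to 0.29 on the log2 scale, and Magi2 at -0.14 (-0.39 to 0.11).

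Averaged over both treatments, Cd2ap was higher in diabetic kidneys by 0.18 on the log2 scale (SE 0.040, 95% interval 0.094 to 0.26, edgeR adjusted p = 0.0288), and 1 of the 8 genes was called, against 3.02% of all genes. At an unadjusted p below 0.05 there were 2 of the 8, against 19.4% of all genes. Over the alternatives without the block the adjusted p for Cd2ap ran from 0.000852 to 0.346, and with the block it was 0.0492. The call was lost without any 1 of ND_C replicates 2 and 3, ND_B12 replicates 2 and 3 and D_B12 replicates 1 and 3. Magi2 was at -0.21 (SE 0.085, 95% interval -0.39 to -0.030, edgeR adjusted p = 0.184). Without both libraries in doubt, Cd2ap, Magi2 and Nphs1 were called, 3 of the 8 against 10.2% of all genes, with Magi2 at -0.29 (edgeR adjusted p = 0.0236) and Nphs1 at 0.17 (edgeR adjusted p = 0.0497). Without D_C replicate 1 alone, Cd2ap and Magi2 were called, 2 of the 8 against 6.79%. With the date as a covariate the average contrast called 0 of all genes.

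B12 in diabetic kidneys, D_B12 against D_C, was compared to ask whether treatment shifts the podocyte genes of diabetic mice. By edgeR 0 of all genes passed, so the share called was 0%, and none of the 8 podocyte genes passed. DESeq2 called 681 genes and edgeR with the date as a covariate 204, none of them among the 8. At an unadjusted p below 0.05 there was 1 of the 8, against 13.6% of all genes, and in 0 of the 8 were the groups apart, against 6.58%. Synpo, the gene past the unadjusted threshold, had 5155, 5086, 4390 and 4704 normalized counts in D_C. In D_B12 Synpo had 6106, 5564, 5128 and 5144, higher on average but with overlapping groups, and a log2 fold change of 0.18 (SE 0.073, 95% interval 0.030 to 0.34, edgeR adjusted p = 0.273). Over its alternatives without the block, the adjusted p for Synpo ran from 0.0571 to 0.468.

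By the labels, 6 of the 8 genes had a fitted value above 0 in the same comparison, with a median log2 fold change of 0.15 beside -0.0004 over all genes. The matching to the supplement described above would largely exchange the 2 groups and with them these signs. Wt1 had 758, 746, 614 and 804 in D_B12, against the D_C values given above, and a log2 fold change of 0.26 (SE 0.14, 95% interval -0.029 to 0.55, edgeR adjusted p = 0.423). Ptpro was at 0.17 (95% interval -0.036 to 0.38), Magi2 at 0.16 (-0.10 to 0.41), Nphs1 at 0.14 (-0.039 to 0.31) and Podxl at 0.065 (-0.075 to 0.21). Plce1 and Cd2ap were at -0.062 (-0.36 to 0.24) and -0.053 (-0.17 to 0.066). This comparison and that of untreated diabetic with non-diabetic kidneys share the D_C libraries, so that opposite signs in the pair of them follow in part from that.

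B12 in non-diabetic kidneys, ND_B12 against ND_C, gave no call by edgeR among all genes (0%) and 6 by DESeq2, none of them a podocyte gene. At an unadjusted p below 0.05 there was again 1 of the 8, against 7.62% of all genes, and no gene's groups were apart, against 4.81%. Podxl had 14889, 14929, 14581 and 16049 in ND_C. In ND_B12 it had 17812, 15807, 16257 and 19045, where only replicate 2 lay within the ND_C range. The log2 fold change was 0.19 (SE 0.066, 95% interval 0.053 to 0.33, edgeR adjusted p = 0.585), and over the alternatives without the block the adjusted p ran from 0.41 to 1. The other 7 genes lay between -0.040 for Wt1 and 0.087 for Cd2ap. All 8 glomerular endothelial markers, described below, also had fitted values above 0 in this comparison, with a median of 0.24 beside 0.0019 over all genes. So had 7 of 7 collecting duct and inner medulla, 6 of 7 proximal tubule and 6 of 7 mesangial markers. Of the 6 macrophage, 6 B cell and plasma cell and 5 adipocyte markers, 0 were above 0. The part of other cell types in the Podxl value was not tested.

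Whether the B12 difference itself depended on diabetes was tested as the interaction, the B12 difference in diabetic kidneys minus that in non-diabetic kidneys. No gene of the table was called by edgeR (0%), 923 were called by DESeq2 and 753 by edgeR with the date as a covariate, and 0 of the 8 podocyte genes passed in any of these fits. None of the 8 was below an unadjusted p of 0.05, against 16.1% of all genes. Estimates ran from -0.14 for Cd2ap (adjusted p = 0.413 by edgeR, SE 0.080) to 0.30 for Wt1 (SE 0.19, 95% interval -0.11 to 0.71, edgeR adjusted p = 0.483). Intervals of this width cannot show that B12 acted alike in both. Without both libraries in doubt there was again no call among the 8 in the interaction (0.350% of all genes), for B12 in diabetic kidneys (0.870%), for B12 in non-diabetic kidneys (0%) or for diabetes under B12 (2.80%).

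Other genes of the podocyte were read from 4 lists, chosen with earlier results of these data known. In untreated diabetic against non-diabetic kidneys, genes of the glomerular basement membrane and of secreted factors had 4 of 12 called higher and none lower, where 0.937% of all genes were called higher. These were Lama5, Lamb2 and Lamc1, which encode the chains of the laminin of the mature glomerular basement membrane, and Sema3g, a semaphorin secreted by podocytes. Lamc1 rose from 3684 ± 208 to 5086 ± 466 normalized counts (SD, n = 4 per group), or by 0.47 on the log2 scale (adjusted p = 0.0227 by edgeR, SE 0.076). Lama5 rose by 0.51 (adjusted p = 0.0469 by edgeR, SE 0.12), Lamb2 by 0.46 (adjusted p = 0.0414 by edgeR, SE 0.10) and Sema3g by 0.55 (adjusted p = 0.0414 by edgeR, SE 0.12). All 4 were also called without both libraries in doubt, but not without ND_C replicate 2 or D_C replicate 4, where no gene of the table was called. With the date as a covariate this comparison called 2 of all genes tested, and without ND_C replicate 3 it also called 2.

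Of 15 other slit diaphragm and surface genes, 1 rose, the laminin-binding integrin Itga3, from 3053 ± 198 to 4130 ± 405 (0.44 on the log2 scale, adjusted p = 0.030 by edgeR, SE 0.082), and none fell. Of 17 other cytoskeleton and adaptor genes none was called here. Inf2, an actin-assembling formin, was at 0.54 (adjusted p = 0.0739 by edgeR, SE 0.15) and Myh9, non-muscle myosin, at 0.32 (adjusted p = 0.060 by edgeR, SE 0.083). Of 8 transcription factors and cell cycle inhibitors none was called, and Foxc1 was at 0.44 (adjusted p = 0.0703 by edgeR, SE 0.12). Median log2 fold changes of the 4 lists were 0.18 for matrix and secreted genes, 0.14 for slit diaphragm and surface genes and 0.09 for both of the others.

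With B12, the podocyte lists gave no call in either diabetic or non-diabetic kidneys. At an unadjusted p below 0.05 in non-diabetic kidneys, 2 of 15 slit diaphragm and surface genes, 3 of 17 cytoskeleton genes, 2 of 8 transcription factors and 3 of 12 matrix genes were higher and none lower, beside 3.67% of all genes higher and 3.95% lower. In diabetic kidneys the same lists had 1, 1, 0 and 2 higher and 2, 2, 2 and 3 lower, beside 6.44% and 7.21% of all genes. Between diabetic and non-diabetic kidneys under B12, 1 of the 17 cytoskeleton and adaptor genes passed, where 0.563% of all genes were called lower. It was Magi1, a relative of Magi2, at -0.25 (adjusted p = 0.0473 by edgeR, SE 0.054). The tight junction scaffold Tjp1, which also sits at the slit diaphragm, had the smallest interaction p of the 4 lists, with a fitted value of -0.42 (adjusted p = 0.0559 by edgeR, SE 0.082). Untreated, Tjp1 stood at 6469 ± 199 without and 7484 ± 266 with diabetes, and under B12 at 7447 ± 476 and 6459 ± 446 (SD, n = 4 per group). On average over treatments, 1 of the 15 slit diaphragm and surface genes and 2 of the 12 matrix genes were called higher with diabetes. Of all genes, 0.862% were called higher in that contrast. The listed genes were Itga3, Lama5 and Lamc1, with log2 differences of 0.24, 0.38 and 0.21 (edgeR adjusted p = 0.0381, 0.0294 and 0.0447). With the date as a covariate that contrast called 0 of all genes.

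Markers of other kidney cells moved between the same groups. Of all genes, 0.937% were called higher and 0.728% lower in D_C than in ND_C. All 8 glomerular endothelial markers were higher in D_C than in ND_C, with 2 of 8 called, Cd34 at 0.62 (adjusted p = 0.0469 by edgeR, SE 0.15) and Egfl7 at 0.39 (adjusted p = 0.034 by edgeR, SE 0.080). At an unadjusted edgeR p below 0.05, where 9.31% of all genes were higher, there were all 8 of these markers. Their summed level was 29435 to 36160 in D_C and 23892 to 26580 in ND_C, without overlap. In ND_B12 it was 26953 to 32188 and in D_B12 27225 to 31961, so that all 3 other groups lay wholly above ND_C. Of 7 collecting duct and inner medulla markers 2 rose, the water channels Aqp2, by 1.69 (adjusted p = 0.0436 by edgeR, SE 0.39), and Aqp3, by 0.60 (adjusted p = 0.0397 by edgeR, SE 0.13). None of 7 mesangial, 5 parietal epithelial, 7 proximal tubule, 5 thick limb and distal tubule, 6 macrophage, 5 adipocyte, 2 tested adrenal or 1 tested skeletal muscle markers was called in that comparison. This does not show that they were unchanged. At an unadjusted edgeR p below 0.05, 4 of the 7 mesangial markers were higher and 0 lower, beside 9.31% of all genes higher. Of the 6 macrophage markers 3 were lower and 0 higher, beside 9.28% of all genes lower. Of the 6 B cell and plasma cell markers 1 fell, Jchain, by 1.96 (adjusted p = 0.0468 by edgeR, SE 0.46). The 4 laminin and semaphorin genes above were, like the endothelial sum, higher in D_C than in ND_C. The part of podocytes or of endothelial cells in their rise was not tested. Of 5 skeletal muscle markers 4 and of 5 adrenal markers 3 averaged under 10 normalized counts.

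**Figure D3:**
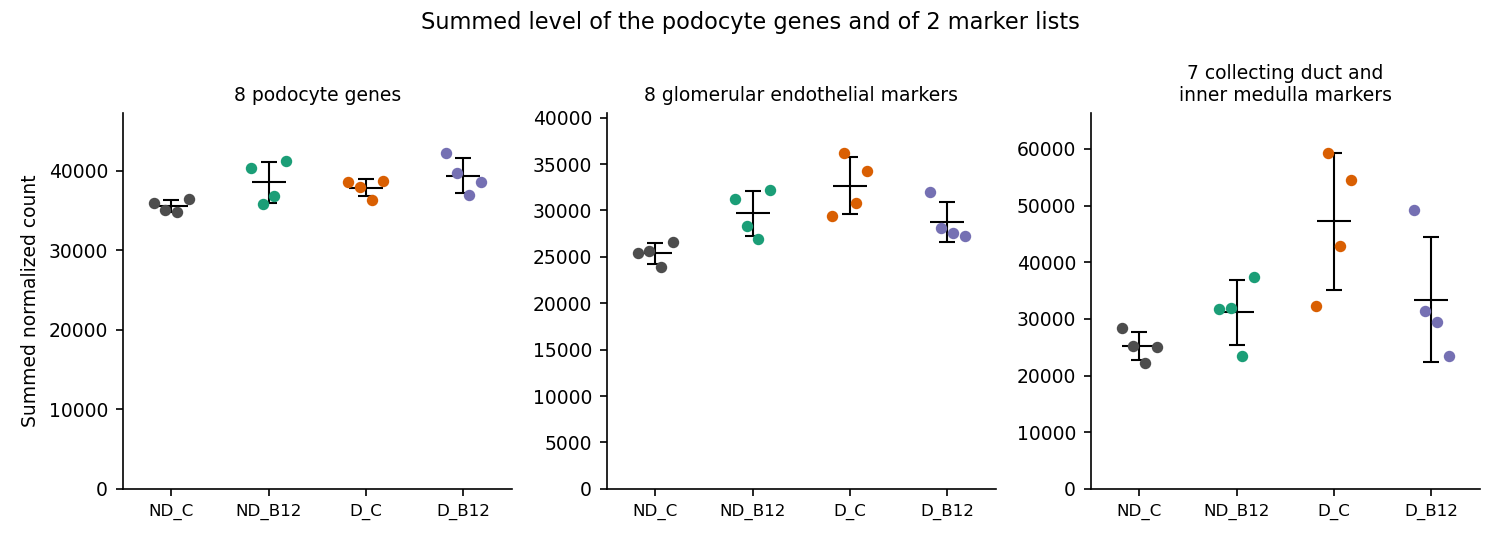
Summed normalized count (vertical axes, from 0) of the 8 podocyte genes, 8 glomerular endothelial markers and 7 collecting duct and inner medulla markers in each library, by labelled group (horizontal axis). Points are libraries in replicate order, bars are mean ± SD (n = 4). The endothelial sums of D_C (29435 to 36160) lie above those of ND_C (23892 to 26580), while the podocyte sums of these groups overlap. Podxl and Cd2ap weigh most in the podocyte sum.

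Across the 16 mice, the 8 genes did not vary as 1 block. Of their 28 pairs 24 had a positive Pearson correlation of log2 CPM, with a median of 0.32, and 6 passed an adjusted permutation p of 0.05. One trio joined nephrin, synaptopodin and podocalyxin. Nphs1 and Synpo had r = 0.70 (permutation p = 0.00241, adjusted 0.0337) and rho = 0.62 (permutation p = 0.0126, adjusted 0.145). Synpo and Podxl had r = 0.63 (permutation p = 0.00827, adjusted 0.0463) and rho = 0.69 (permutation p = 0.00367, adjusted 0.103). Nphs1 and Podxl had r = 0.63 (permutation p = 0.010, adjusted 0.0469) and rho = 0.56 (permutation p = 0.0244, adjusted 0.145).

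The other correlated genes centred on Magi2. Wt1 and Magi2 had r = 0.75 (permutation p = 0.00151, adjusted 0.0337) and rho = 0.51 (permutation p = 0.0491, adjusted 0.195). Magi2 and Ptpro had r = 0.65 (permutation p = 0.00663, adjusted 0.0463) and rho = 0.60 (permutation p = 0.0157, adjusted 0.145). Cd2ap ran against Magi2, with r = -0.69 (permutation p = 0.00372, adjusted 0.0347) and rho = -0.53 (permutation p = 0.0386, adjusted 0.180). No rank correlation passed after adjustment over the 28 pairs. Without the 2 libraries farthest from the median of the first gene, these 6 values of r were 0.63, 0.63, 0.57, 0.52, 0.59 and -0.63 in the order given.

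After the group means were subtracted, 3 pairs passed, Synpo with Podxl (r = 0.76, adjusted permutation p = 0.0216), Nphs1 with Podxl (r = 0.71, adjusted permutation p = 0.0255) and Wt1 with Magi2 (r = 0.66, adjusted permutation p = 0.0446). Nphs1 with Synpo was then at 0.54, Magi2 with Ptpro at 0.50 and Cd2ap with Magi2 at -0.51. These permutations ran over all 16 libraries without regard to group and did not allow for the group means removed. Their p-values therefore run low, and they cannot settle whether the 3 pairs hold within groups. All points of a pair share library, depth and tissue piece, and leaving out 1 library at a time gave between 0 and 7 pairs past the threshold, with 0 without D_C replicate 2, D_C replicate 4 or D_B12 replicate 3.

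**Figure D4:**
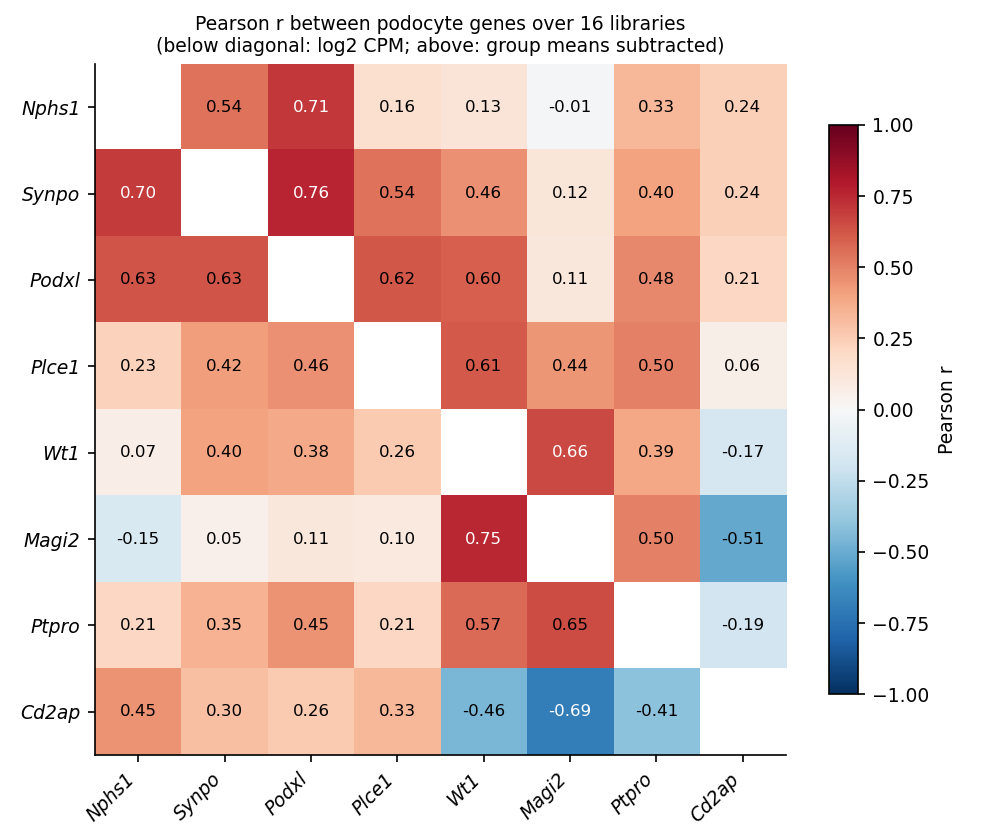
Pearson r between the podocyte genes (both axes) over 16 libraries, in colour from -1 to 1 and as numbers. Values below the diagonal use log2 CPM and values above it use log2 CPM with each group's mean subtracted. Nphs1, Synpo and Podxl correlate with each other (0.63 to 0.70 below the diagonal), Magi2 correlates with Wt1 (0.75) and with Ptpro (0.65), Wt1 with Ptpro is at 0.57 and did not pass after adjustment, and Cd2ap and Magi2 have r = -0.69.

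The genes whose pattern over the 16 libraries was most like the mean standardized log2 CPM of the 8 were sought among 15353 other genes with a mean of at least 100 normalized counts. The closest was Myom2 (r = 0.86), which encodes a muscle M-band protein, and others among the 10 closest were Galnt10 (0.80), Fryl (0.78), Ercc6l2 (0.77), Abitram (0.75), Sema3e (0.74), Fam161b (0.74), Mgat5 (0.74) and Arhgef10 (0.73). Among the other listed podocyte genes, Thsd7a, a foot process membrane protein, ranked 16th (r = 0.70), while Lamc1 (r = 0.06) did not follow the 8. These likenesses are descriptions over libraries that also share depth and dissection.

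The transcript table resolved each gene into isoforms as StringTie estimated them. Of the isoforms of the 8 genes 39 had at least 100 counts, and none was called in any comparison by edgeR over the 66503 transcripts tested, of which 0% were called. In untreated diabetic against non-diabetic kidneys 5 of the 39 were below an unadjusted p of 0.05, against 9.77% of all transcripts, and averaged over treatments 9 of 39, against 10.2%. Counts in the other comparisons were 5 for diabetes under B12 (12.1%), 5 for B12 in diabetic (9.27%) and 8 for B12 in non-diabetic kidneys (6.93%), and 6 for the interaction (12.1%). Podxl was almost a single isoform, with Podxl-201 at 99.8% to 99.9% of its counts, and Nphs1-201 took 85.5% to 92.6%.

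None of the 6 Cd2ap isoforms tested was called, and the 2 with the smallest unadjusted p in untreated kidneys are given here. Cd2ap-201, the protein-coding isoform with 77.7% to 90.2% of the gene's counts, had 8666, 7305, 8357 and 8190 normalized counts in ND_C. In D_C it had 8523, 9133, 8708 and 10492, which overlaps, with a log2 fold change of 0.22 (adjusted p = 0.447 by edgeR, SE 0.088). Cd2ap-203, annotated as a retained intron, had 416, 595, 407 and 394 in ND_C. In D_C it had 820, 824, 1354 and 457, higher in 3 of the 4, with a log2 fold change of 0.97 (adjusted p = 0.342 by edgeR, SE 0.30). Over the alternatives without the block, the adjusted p ran from 0.231 to 0.684 for Cd2ap-201 and from 0.238 to 0.572 for Cd2ap-203. Both were named after their values were seen.

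A minor Synpo isoform, Synpo-202, was also named after its values were seen. It had 131, 129, 102 and 84 normalized counts in ND_C, and 91, 233, 219 and 159 in D_C. D_B12 had 377, 277, 331 and 349, and ND_B12 had 49, 112, 174 and 225. For B12 in diabetic kidneys the log2 fold change was 0.87 (adjusted p = 0.526 by edgeR, SE 0.39). How many of all transcripts set 1 group apart to this degree was not counted. For diabetes on average the log2 fold change was 0.94 (adjusted p = 0.261 by edgeR, SE 0.28), and over the alternatives without the block the adjusted p ran from 0.0459, without both libraries in doubt, to 0.413. The share of all transcripts called without both libraries is not given here.

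Magi2 was the most divided. Its leading isoforms, Magi2-206 and Magi2-205, differ in the annotation by 1 coding exon of 42 bases, at chr5:20748583-20748624 on the plus strand of GRCm39, which adds 14 codons in frame to Magi2-205 as exon 13 of 22. Its junctions are shown with 15 bases on each side, exon bases in capitals and intron bases in lower case, since these are the bases that set the isoforms apart. The intron after the exon opens with gc, where most introns open with gt.
Magi2 exon, start: cattttcccatccagAACAAGTGCCACCCA
Magi2 exon, end: GAATGGATTCCTCTGgcaagtattcagaat

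Counts of the isoform with this exon, Magi2-205, were 37, 15, 5 and 27 after normalization in ND_C, while D_C had 1027, 673, 126 and 13. Under B12 they were 200, 38, 274 and 196 without diabetes and 670, 828, 77 and 865 with it. Of the counts of both isoforms together, Magi2-205 held at most 3.23% in untreated and 22.1% in treated non-diabetic kidneys, but from 1.88% to 100% in D_C and from 9.74% to 100% in D_B12. Magi2-206 was listed at 0 in D_C replicates 1 and 2 and in D_B12 replicate 1, where all counts were given to Magi2-205. The split of this pair was thus mixed within both diabetic groups and near 1 isoform in ND_C. Of all Magi2 counts in ND_C, Magi2-206 held 48.5% to 69.4%. Magi2-210, annotated as a retained intron, held 17.5% to 23%, and Magi2-202 held 3.8% to 30.1%.

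The log2 fold change of Magi2-205 was 4.46 in untreated diabetic kidneys (adjusted p = 0.276 by edgeR, SE 1.2) and 3.10 for diabetes on average (adjusted p = 0.184 by edgeR, SE 0.77). Over its alternatives without the block the adjusted p ran from 0.206 to 0.514 and from 0.137 to 0.31. For Magi2-206 in untreated kidneys it ran from 0.809 to 0.91 around a log2 fold change of -1.47 (adjusted p = 0.844 by edgeR, SE 1.6). The sum of both isoforms ran from 670 to 1263 over the 16 libraries. Reads that miss the exon and its junctions fit both isoforms, so these counts are estimates, and the deposited entries carry an earlier version number than the annotation used for the exon.

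**Figure D5:**
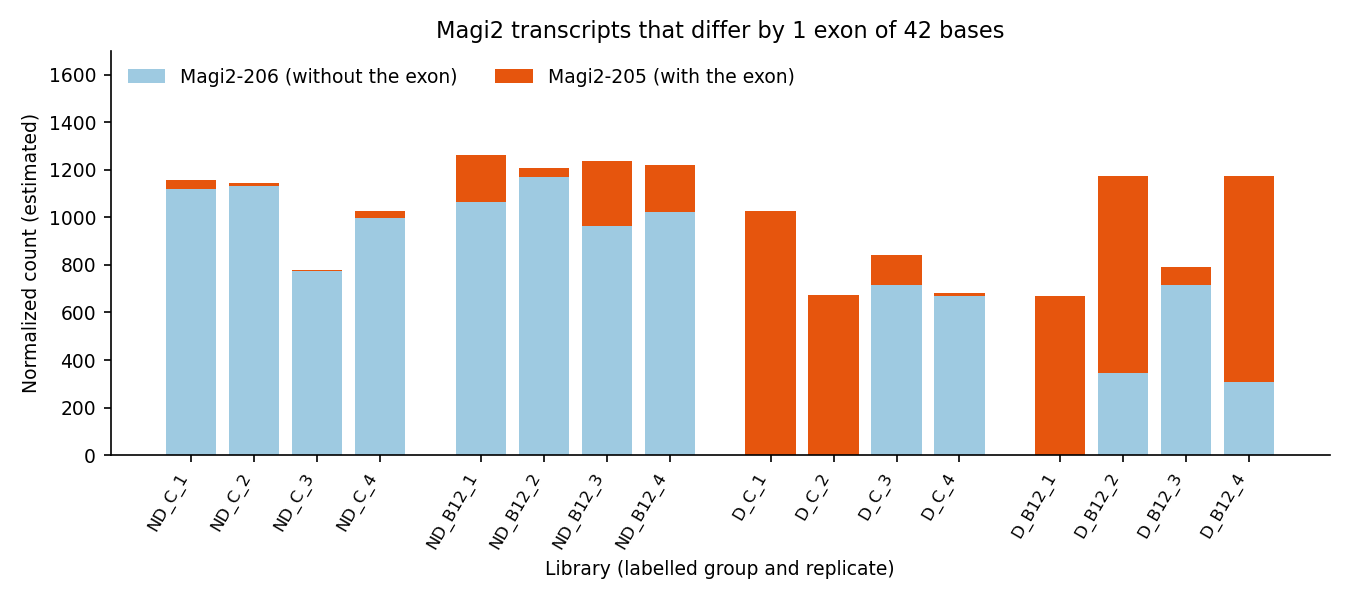
Estimated normalized count (vertical axis, stacked from 0) of Magi2-206 and Magi2-205 in each of the 16 libraries (horizontal axis, labelled group and replicate). Magi2-205 holds 100% of the pair in D_C replicates 1 and 2 and in D_B12 replicate 1, and at most 3.23% in the 4 ND_C libraries.

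Ptpro showed an alternative exon of the same kind. Ptpro-201 contains an 84-base coding exon, exon 17 of 27 at chr6:137397322-137397405 on the plus strand of GRCm39, that the leading isoform Ptpro-203 lacks and that adds 28 codons in frame. Its junctions are shown in the same way, since they set this pair of isoforms apart.
Ptpro exon, start: tattaatgctcacagGCGTAGGAGTGTGTT
Ptpro exon, end: TTATATTAACCCTTGgtaagtgacttcatt
Ptpro-201 had 172, 0, 0 and 366 normalized counts in ND_C and 0, 3, 230 and 0 in D_C. In ND_B12 it had 1, 1, 0 and 0, and in D_B12 0, 0, 0 and 6. It was therefore listed at more than 6 in 3 untreated libraries, up to 29.2% of Ptpro counts, and its differences with B12 were not called (edgeR adjusted p = 0.687 in non-diabetic and 0.534 in diabetic kidneys).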

How the data were processed

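Whole-kidney total RNA was sequenced as paired 50-base reads. The authors aligned them with STAR to GRCm39 with GENCODE vM35 and deposited an estimated count per gene and per transcript from StringTie (bcl2fastq 2.20.0 is the only version in the submitters' processing notes). These expected counts were whole numbers. Columns were matched to libraries by the number ending each library's name, and 0 were left over. Depth is given with the results.

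The members, lists and marker genes were chosen with earlier results of these data known. All 8 members were named throughout. A listed gene could be named where its adjusted p was below 0.05 or, for at most 3 per list and comparison, where its unadjusted p was, and the 10 genes most like the members could be named. Some results for single genes are not reported here.

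Normalized counts used median-of-ratios size factors. Tests used edgeR 4.0.16 in R 4.3.3 (glmQLFit, glmQLFTest, TMM, at least 100 counts in all, 16 libraries, a mean per group, 12 residual degrees of freedom, Benjamini-Hochberg adjustment over all genes) and were two-sided. Correlations used log2 CPM with a prior count of 2 and 100000 permutations. Alternatives were DESeq2 1.42.0, upper-quartile scaling, other filters, the label date, the replicate number as a block, the compared groups alone and each library left out. Leaving out ND_B12 replicate 4 and D_C replicate 1 together was added after seeing the data, as were the alternatives for transcripts beyond the filter and the correlations without each library. Tests were tried on simulated data. Gene and exon positions come from GENCODE vM39, in which 56630 of 57186 identifiers were found. Python 3.11.15, pandas 2.3.3, numpy 2.4.6, scipy and matplotlib were used.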

Additional observations from a re-analysis of the deposited data

How the results depend on the processing

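Counts of podocyte genes called depended on the settings. In untreated kidneys, where 1 of the 8 was called, 0 were called with no filter beyond 1 count, with the date as a covariate or with only the compared groups, 0 to 3 with 1 library left out, and 3 without both libraries in doubt. For diabetes on average the count of 1 became 0 with no filter or with the date, 0 to 2 with 1 library left out, and 3 without both. Correlated pairs fell from 6 to 3 after group means were subtracted, by permutations that did not allow for those means, and were 0 to 7 with 1 library left out. Called isoforms of the 8 genes went from 0 to 1 without both, Synpo-202 for diabetes on average. The share of all transcripts called in that fit is not given here, so this 1 call cannot be set against it. The summed share of the 8 genes was 470 ± 27.1 CPM by TMM and 475 ± 32.8 by raw totals (SD, n = 16).

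With the replicate number as a block, 0 of the 8 genes were called in untreated kidneys, and over all genes the count went from 423 to 269, from 767 to 478 for the average, from 209 to 25 for diabetes under B12 and from 0 to 147 for the interaction. Same-numbered libraries correlated at -0.18 to 0.17 in their deviations from group means, with 2 of 24 above 0.1, so the numbers were not taken to pair the mice.

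Reversed signs were all of values that had not been called, and what caused them was not tested. Those values included -0.15 for Wt1 and -0.11 for Ptpro on average. In log2, the date as a covariate gave, for diabetes under B12, 0.25 for Wt1, 0.059 for Podxl, 0.094 for Magi2 and 0.090 for Ptpro, on average 0.035 for Wt1 and 0.0028 for Ptpro, 0.008 for Wt1 with B12 without diabetes, and for Plce1 0.31 with B12 in diabetes and 0.16 in the interaction. Upper-quartile scaling gave -0.011 for Synpo in untreated kidneys, -0.014 for Magi2 with B12 without diabetes and 0.032 for Wt1 with diabetes under B12. The last value was 0.0027 with DESeq2, 0.0043 with the block and 0.018 with the compared groups alone. Without both libraries it was 0.055, with 0.0046 for Podxl, -0.025 for Synpo in untreated kidneys, -0.021 for Nphs1 with B12 without diabetes and 0.025 for Plce1 with B12 in diabetes.

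With 1 library left out, the ranges that crossed 0 were, for B12 without diabetes, -0.018 to 0.14 for Nphs1, -0.10 to 0.020 for Wt1, -0.024 to 0.093 for Plce1, -0.032 to 0.055 for Magi2 and -0.026 to 0.13 for Ptpro. For diabetes under B12 they were -0.060 to 0.073 for Wt1, -0.092 to 0.00047 for Podxl, -0.010 to 0.23 for Plce1 and -0.12 to 0.031 for Ptpro. The others were Synpo in untreated kidneys at -0.034 to 0.048, Podxl on average at -0.0088 to 0.038, Plce1 with B12 in diabetes at -0.17 to 0.065, and in the interaction Nphs1 at -0.0054 to 0.15 and Plce1 at -0.21 to 0.022. Of 368 member values under other settings 338 kept their sign and their side of the threshold, and of 768 with 1 library left out 717 did. The p-values cover the spread between 4 mice a group only, not the date or the labels in doubt.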
